A study of Mus musculus with 4 samples.

Results

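The proteasome genes of the brain cortex were compared between male SAMR1 mice given TCQA and male SAMR1 mice given water. The genes were all those on the array whose symbol starts with Psma, Psmb, Psmc, Psmd, Psme, Psmf or Psmg followed directly by a digit. These were 50 of 19505 named genes, each with a single transcript cluster, the unit in which the array summarises its probes for a gene. SAMR1 is the normally ageing control line of the senescence-accelerated mouse strains. TCQA is tricaffeoylquinic acid, a plant polyphenol. The TCQA group received 5 mg/kg by mouth each day for 1 month from the age of 11 months, and the control group received purified water over the same time. Both groups had been kept in single cages for 4 months from the age of 7 months, and neither carries an engineered allele. Each group had 2 Clariom S arrays. The labels do not say whether an array held RNA of 1 mouse or of several, so every p-value reflects the spread of these arrays alone, which may be technical.

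The proteasome degrades proteins that carry ubiquitin chains. Its core particle is a barrel of alpha and beta rings, in which the alpha rings form the gate and some beta subunits cut the substrate. The regulatory particle caps the barrel. It binds ubiquitin chains, removes them and uses a ring of ATPases to unfold the protein and feed it in. Interferon makes cells exchange the cutting beta subunits for those of the immunoproteasome, which favours peptides for class I antigen presentation. In neurons, proteasome activity is known for its part in synaptic protein turnover, and its decline has been linked to ageing.

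By the rule's symbols, 7 genes belonged to the alpha ring, 6 to the constitutive beta ring, 3 to the immunoproteasome, 6 to the regulatory particle ATPases, 11 to its other subunits, 5 to other activators and an inhibitor, and 7 to assembly. The other 5 are matched by symbol alone or lie outside the particle of most tissues. Psma8 is a testis subunit and Psmb11 a thymus subunit. Psmc3ip is a recombination factor of meiosis, Psme3ip1 encodes a nuclear partner of Psme3, and Psme2b is a copy of Psme2, so that signals of that pair may share sequence and are uncertain. Psmb5 was not analysed here. The deposited values are log2 signals, in which a difference of 1 is a 2-fold difference, and levels of different genes cannot be ranked from them. Array medians ranged from 6.98 to 7.04. The array's negative control probe sets had a median of 6.98 and a 95th percentile of 11.06. Both group means exceeded that percentile for 26 of the 50 genes, and both lay below the median for 6, namely Psmb8, Psmb9, Psmg3, Psmg4, Psma8 and Psmb11, whose changes are uncertain in size. Slc17a7, the glutamate transporter that defines cortical excitatory neurons, lay at 16.32 and 16.27 in the TCQA arrays and at 15.98 and 16.34 in the water arrays, far above the negative controls.

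The transcription factor Nfe2l1 is known to drive proteasome genes through antioxidant response elements, whose core is written TGACNNNGC. That core was searched on both strands of the RefSeq promoters (GRCm38.p6), each 250 bases before to 50 bases after the start used for that promoter. It was found in 5 of 42 proteasome genes with a promoter in the table (11.9%), against 14% of 27025 genes. The holders were Psmb6, Psmc6, Psmd12, Psmd9 and Psme4. The CCAAT box, searched on both strands as CCAAT, was found in 16 of the 42 (38.1%), against 41.1% of all. Both shares lay close to those of all promoters, and neither motif contains the other. The 3 holders that encode subunits of the core or regulatory particle are shown, with the element's letters in capitals. It is read on the opposite strand in Psmc6 and Psmd12. It begins at position -227 in Psmc6, -247 in Psmd12 and -9 in Psmb6, relative to the start used for each promoter. For Psmb6 that start lies downstream of the gene's listed start, chr11:70525324, and so does the element.
Psmc6 (chr14:45329574-45329873, plus strand): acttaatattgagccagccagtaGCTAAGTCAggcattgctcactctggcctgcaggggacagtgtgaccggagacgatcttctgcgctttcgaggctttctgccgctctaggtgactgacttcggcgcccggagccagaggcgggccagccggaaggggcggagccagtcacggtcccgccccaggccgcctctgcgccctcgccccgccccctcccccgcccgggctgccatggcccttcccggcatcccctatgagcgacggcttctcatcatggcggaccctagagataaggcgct
Psmd12 (chr11:107479278-107479577, plus strand): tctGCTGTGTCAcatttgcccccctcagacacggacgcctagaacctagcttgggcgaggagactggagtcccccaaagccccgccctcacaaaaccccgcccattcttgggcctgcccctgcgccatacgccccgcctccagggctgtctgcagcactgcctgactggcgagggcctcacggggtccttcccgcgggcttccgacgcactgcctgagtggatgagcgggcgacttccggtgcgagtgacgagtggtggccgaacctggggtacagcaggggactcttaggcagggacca
Psmb6 (chr11:70525107-70525406, plus strand): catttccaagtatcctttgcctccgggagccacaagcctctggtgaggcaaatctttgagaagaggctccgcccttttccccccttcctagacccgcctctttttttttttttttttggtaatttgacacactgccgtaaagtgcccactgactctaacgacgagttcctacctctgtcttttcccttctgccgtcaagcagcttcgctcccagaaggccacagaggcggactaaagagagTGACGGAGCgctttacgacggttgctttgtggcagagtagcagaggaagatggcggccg

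The comparison of TCQA with water asked whether the genes of the particle differed after the treatment. None of the 50 genes met the criteria of the study (over 2-fold with an unadjusted p under 0.05), against 0.664% of all 19572 named transcript clusters (130). After Benjamini-Hochberg adjustment with limma, 0 of the 50 and 0% of all passed. An unadjusted p under 0.05 was reached by 2 of the 50 genes (4%), against 7.37% of all. They were Psmg2, higher in TCQA, and Psmg3, lower in TCQA, each 2% of the genes, against 3.48% of all higher and 3.89% of all lower. Over all transcript clusters, such calls varied with signal. They were 86 higher and 28 lower of 3082 with both means above the negative control 95th percentile. With both means below the negative control median, they were 249 higher and 579 lower of 9505. Of the 50 genes, 26 lay in the first band and 6 in the second, so the shares of all are not matched for signal. The ordinary linear model without the empirical Bayes step gave 1 gene with an unadjusted p under 0.05, Psmc2, and 0 after adjustment.

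The log2 changes of the 50 genes ran from -0.59 to 0.59, with 22 above 0 (44%, against 50.5% of all) and 28 below 0. Their median was -0.06, and that over all named transcript clusters was 0.0028. The standard errors lay between 0.18 and 0.28. At the median standard error of 0.21, an unadjusted p of 0.05 required a log2 change of 0.51, or 1.42-fold. The 95% interval of the change lay within 2-fold either way for 45 of the 50 genes (90%), against 80.8% of all transcript clusters. The intervals of Psmg2, Psmg3, Psmd5, Psmd12 and Psmc6 reached past 2-fold. Both TCQA arrays lay above both water arrays for 14 genes (28%), against 19.9% of all, and below them for 6 genes (12%), against 19.2% of all. With both means above the negative control 95th percentile, 57.7% of 26 genes were above 0, against 59.3% of all in that band. With both means below the negative control median it was 16.7% of 6 genes, against 42%, and between these bands 33.3% of 18, against 58.1%. The genes were chosen with earlier results of these data known, so nothing is read from these shares. The other comparisons with all transcript clusters in this paragraph were not matched for signal. With bulk tissue, a change in the share of a cell type and a change in RNA per cell cannot be told apart.

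**Figure D1:**
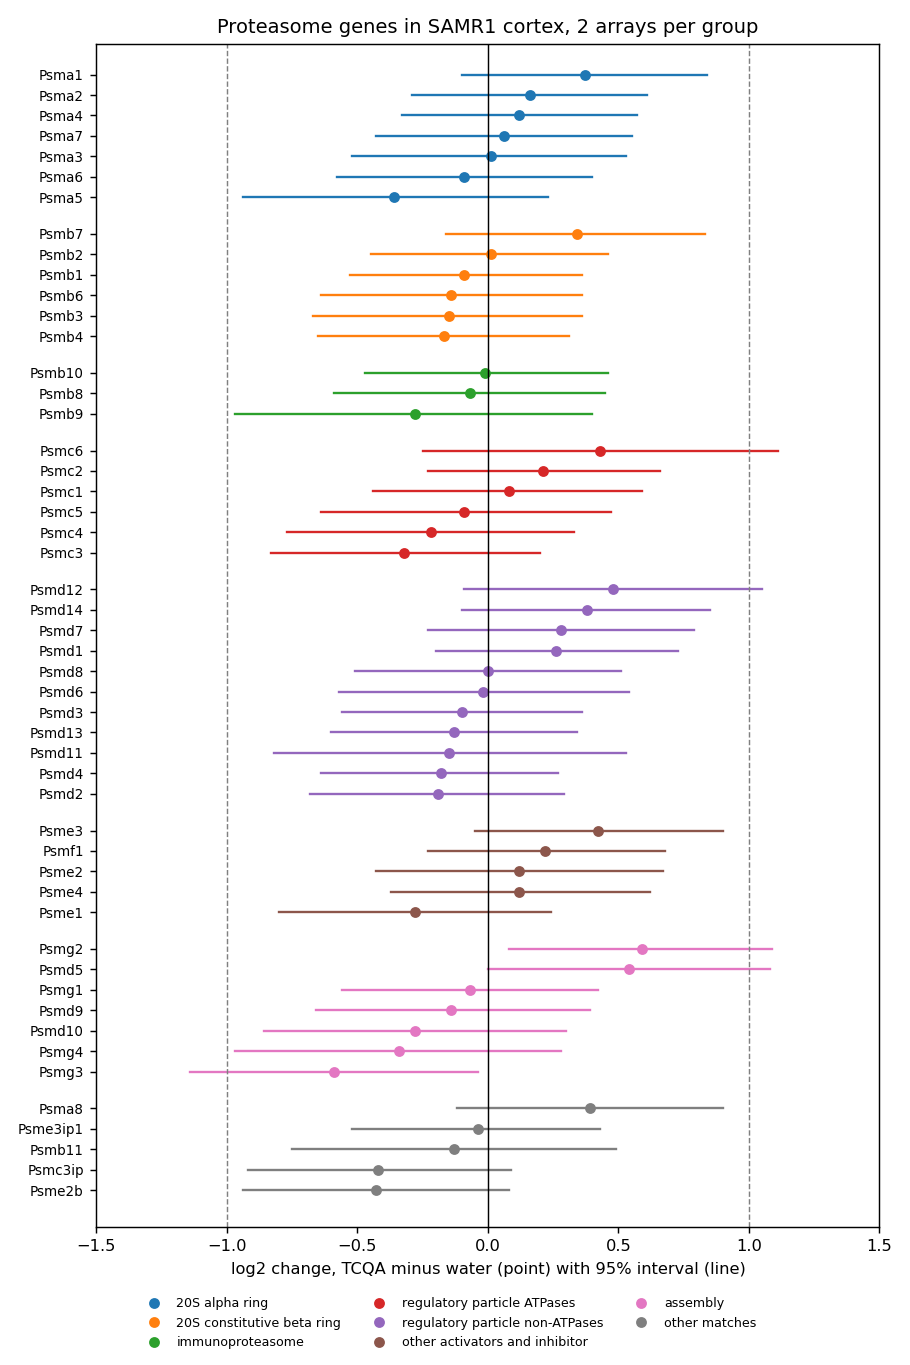
Log2 change of the 50 proteasome genes, TCQA minus water, on the horizontal axis, with points for estimates and lines for limma's 95% intervals, grouped and coloured by class; dashed lines mark 2-fold. The intervals of Psmg2 and Psmg3 exclude 0, and those of all other genes include it or touch it.

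The alpha ring, which forms the gate of the core particle, had a median log2 change of 0.06 over its 7 genes, with 5 above 0, 2 below 0 and none with an unadjusted p under 0.05. Psma1 had a signal of 12.05 and 12.29 in the TCQA arrays, against 11.84 and 11.77 in the water arrays. Both TCQA arrays were above both water arrays, and the difference was 0.37 (SE 0.20, 95% interval -0.10 to 0.84). Psma5 lay at 9.89 and 10.12 after TCQA, against 10.10 and 10.63 after water. Its groups overlapped by a small margin, water 2 was the highest array, and the difference was -0.36 (SE 0.24, 95% interval -0.94 to 0.23). Without water 2 it was -0.09 and without TCQA 1 it was -0.24. The other 5 alpha genes differed by -0.09 to 0.16. TCQA 2 was above TCQA 1 for 7 of 7 alpha genes with a median of 0.23, and water 2 was above water 1 for 4 of 7 with a median of 0.04. The same share over all transcript clusters is not given here, so these counts are not read as a trait of the proteasome genes. TCQA 2 was also the higher array in the beta ring (5 of 6, median 0.19) and in the regulatory subunits other than ATPases (7 of 11, median 0.20). Over all 50 genes it was higher for 32, with a median of 0.14. The ATPases had no such difference (3 of 6, median -0.01), and that of the activators and inhibitor was small (3 of 5, median 0.04). The immunoproteasome (1 of 3, median -0.39) and assembly genes (3 of 7, median -0.32) went the other way, and the other matches were higher (3 of 5, median 0.13).

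The constitutive beta ring had a median of -0.11 over 6 genes, with 2 above 0 and 4 below 0. Psmb7, the subunit with trypsin-like activity, had signals of 13.27 and 13.55 with TCQA, against 13.00 and 13.15 with water. Both TCQA arrays were the higher ones, by 0.34 on average (SE 0.20, 95% interval -0.16 to 0.83), and by 0.19 without TCQA 2. Psmb4, a structural subunit, lay at 11.13 and 11.24 with TCQA, against 11.48 and 11.23 with water. The high array was water 1 and the other 3 were close, so that the difference of -0.17 (SE 0.20) was -0.04 without water 1, -0.11 without TCQA 1 and -0.30 without water 2. Psmb6, the subunit with caspase-like activity, whose promoter is printed above, differed by -0.14 (95% interval -0.64 to 0.36). Psmb1, Psmb2 and Psmb3, all structural, differed by -0.09, 0.01 and -0.15.

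The immunoproteasome genes encode the replacements of the cutting subunits: Psmb8 takes the place of Psmb5, Psmb9 that of Psmb6 and Psmb10 that of Psmb7. None had an unadjusted p under 0.05, the groups of all 3 overlapped, and the median of -0.07 rests on Psmb8, which is not above the negative control median. Psmb9 had the widest difference, at 4.54 and 3.84 in TCQA arrays, against 4.65 and 4.30 in water arrays. TCQA 2 was the lowest of the 4 arrays, and the difference was -0.28 (SE 0.28, 95% interval -0.97 to 0.40). With an array left out it ran from -0.63 without TCQA 1 to 0.07 without TCQA 2. Psmb8 lay at 5.71 and 5.32 in TCQA arrays, against 5.67 and 5.51 in water arrays, with TCQA values on either side of the water values. Its difference was -0.07 (SE 0.22), and it ran from -0.26 without TCQA 1 to 0.13 without TCQA 2. Both genes had signals under the negative control median, where these arrays say little. Psmb10, just above that median, had 7.63 and 7.67 in TCQA arrays, against 7.55 and 7.76 in water arrays, a difference of -0.01 with a 95% interval of -0.47 to 0.46. With an array left out it ran from -0.11 without water 1 to 0.10 without water 2.

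Genes that share the interferon and class I pathway with these subunits were also read, and 7 of the 9 listed were measured. None had an unadjusted p under 0.05, 3 were above 0 and 4 below 0, and the median was -0.06. Tap1, Tap2 and H2-D1 had signals under the negative control median, so nothing is read from their differences. H2-K1, a class I heavy chain, lay at 8.32 and 7.60 in TCQA arrays, against 8.68 and 8.27 in water arrays. The groups overlapped, and the difference was -0.52 (SE 0.30). Tapbp lay at 10.51 and 10.35 in TCQA arrays, against 10.89 and 10.65 in water arrays, a difference of -0.34 (SE 0.20) without overlap. Irf1 differed by 0.10, with both TCQA arrays above the water arrays, and B2m by -0.06 with overlapping groups. Of all transcript clusters, 19.2% had both TCQA arrays below both water arrays and 19.9% had them above.

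The 6 ATPases of the regulatory particle, which unfold the substrate, had a median log2 change of -0.01, with 3 above 0 and 3 below 0. Psmc6 had signals of 11.69 and 11.94 in TCQA arrays, against 11.02 and 11.75 in water arrays. Water 1 stood apart as the lowest, and TCQA 1 was slightly below water 2. The difference was 0.43 (SE 0.28, 95% interval -0.25 to 1.11), but 0.07 without water 1 and 0.79 without water 2, where its unadjusted p was under 0.05. Psmc3 lay at 13.12 and 12.80 with TCQA, against 13.15 and 13.40 with water. Both TCQA arrays were lower, TCQA 1 by a small margin, and the difference was -0.32 (SE 0.22), or -0.15 without TCQA 2 and -0.48 without TCQA 1. Psmc2, whose arrays were close within each group, differed by 0.21 (SE 0.18), and Psmc1, Psmc4 and Psmc5 by 0.08, -0.22 and -0.09.

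The 11 other subunits of the regulatory particle had a median of -0.02, with 5 above 0 and 6 below 0. Psmd12, a scaffold subunit of the lid, had signals of 12.30 and 12.64 with TCQA, against 11.78 and 12.19 with water. Both TCQA arrays were above both water arrays, TCQA 2 being the highest and water 1 the lowest. The difference was 0.48 (SE 0.24, 95% interval -0.09 to 1.05). It was 0.31 without TCQA 2, 0.28 without water 1 and 0.69 without water 2, where its unadjusted p was under 0.05. Psmd14, the deubiquitinase that removes ubiquitin chains from the substrate, lay at 11.12 and 11.32 with TCQA, against 10.94 and 10.75 with water. Its groups did not overlap, and the difference was 0.38 (SE 0.20, 95% interval -0.10 to 0.85). Psmd7, the lid partner of Psmd14, differed by 0.28, with TCQA 1 and water 1 both at 14.20. It was 0.14 without TCQA 2 or water 2, and 0.41 without TCQA 1 or water 1. Psmd1, a large scaffold of the base, differed by 0.26, with both TCQA arrays the higher. Psmd2, the other large scaffold, differed by -0.19, and Psmd4, a ubiquitin receptor, by -0.18. The remaining members Psmd3, Psmd6, Psmd8, Psmd11 and Psmd13 lay between -0.15 and 0.00.

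Among the other activators and the inhibitor, 4 of 5 genes were above 0 and the median was 0.12. Psme3, the nuclear activator that opens the core without ubiquitin, had signals of 13.18 and 13.22 with TCQA, against 12.64 and 12.91 with water. Both TCQA arrays lay above the water arrays and close to each other, and the difference was 0.42 (SE 0.20, 95% interval -0.05 to 0.90). Psme1 and Psme2 form the interferon-induced activator together. Psme1 lay at 11.76 and 12.06 with TCQA, against 12.32 and 12.06 with water, a difference of -0.28 (SE 0.21), or -0.13 without TCQA 1, -0.15 without water 1 and -0.43 without TCQA 2. Psme2 differed by 0.12, with TCQA 1 the highest and the other arrays between 9.57 and 9.77. Psme4, the activator of nuclear protein turnover, differed by 0.12, and Psmf1, known as an inhibitor of the core in vitro, by 0.22 (SE 0.19).

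The assembly factors had a median log2 change of -0.14, with 2 above 0 and 5 below 0. Both genes with an unadjusted p under 0.05 were among these 7, against 7.37% of all transcript clusters, and Psmg3, the lower of them, had signals under the negative control median. Psmg2, which pairs with Psmg1 as a chaperone of the alpha ring, had signals of 11.14 and 11.44 in TCQA arrays, against 10.61 and 10.81 in water arrays. The groups did not overlap, and the log2 change was 0.59 (SE 0.21, 95% interval 0.08 to 1.09). Its adjusted p with limma was 0.673. The change no longer reached an unadjusted p of 0.05 when TCQA 2 (0.44) or water 1 (0.49) was left out. Psmg1, its partner, lay at 9.32 and 9.0 in TCQA arrays, against 9.25 and 9.22 in water arrays, a difference of -0.07 (95% interval -0.56 to 0.42). The pair thus had unlike values, although the difference between their changes was not tested.

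Psmg3 and Psmg4 make up the other chaperone pair of the alpha ring, and both had low signals. Psmg3 lay at 4.16 and 3.70 in TCQA arrays, against 4.44 and 4.60 in water arrays. Every TCQA array was below every water array, and Psmg3 was 1.51-fold lower in TCQA, a log2 change of -0.59 (SE 0.23, 95% interval -1.14 to -0.04). Its adjusted p with limma was 0.673. The change missed an unadjusted p of 0.05 when TCQA 2 (-0.36), water 1 (-0.67) or water 2 (-0.51) was left out. All 4 signals were under the negative control median, which leaves the size of that change uncertain. Psmg4 lay at 5.11 and 4.53 in TCQA arrays, against 5.01 and 5.32 in water arrays, with a difference of -0.34 (SE 0.26) and overlapping groups.

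Psmd5, Psmd9 and Psmd10 are chaperones that build the base of the regulatory particle. Psmd5 was singled out after its values were seen, as the nearest gene outside the threshold. It had signals of 9.61 and 10.02 with TCQA, against 9.16 and 9.39 with water, with no overlap. The difference was 0.54 (SE 0.23, 95% interval 0.00 to 1.08), and 0.33 without TCQA 2 and 0.75 without TCQA 1, where its unadjusted p was under 0.05. Psmd9 and Psmd10 differed by -0.14 and -0.28 with overlapping groups.

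**Figure D2:**
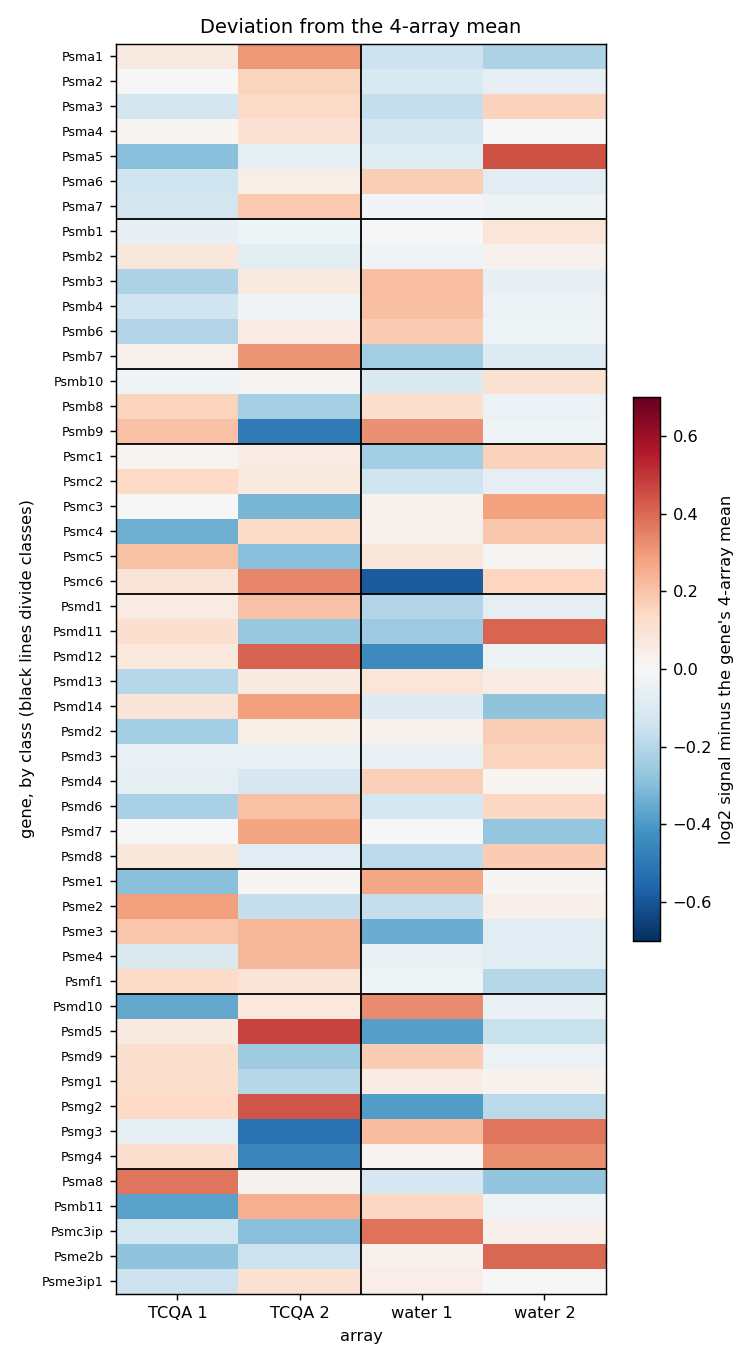
Log2 signal of each proteasome gene (rows, by class) on each array (columns) minus that gene's mean over the 4 arrays, red above and blue below. Psmg2 and Psmd5 are among several genes that are red in both TCQA arrays, and no class is of 1 colour across a group.

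Of the 5 symbol matches outside the particle, none had an unadjusted p under 0.05. Their median was -0.13, or 0.08 without TCQA 1. Psme2b lay at 6.61 and 6.74 in TCQA arrays, against 6.92 and 7.29 in water arrays, and Psmc3ip at 6.90 and 6.73 in TCQA arrays, against 7.40 and 7.06 in water arrays. Neither gene's groups overlapped, and the differences were -0.43 (95% interval -0.94 to 0.08) and -0.42 (95% interval -0.92 to 0.09), with SEs of 0.21. Without water 2 that of Psme2b was -0.25, and without water 1 that of Psmc3ip was -0.25 and that of Psme2b -0.61, which then had an unadjusted p under 0.05. Psma8, the testis subunit, differed the other way by 0.39 (SE 0.21), at 4.37 and 4.02 in TCQA arrays, against 3.88 and 3.72 in water arrays. Its signals and those of Psmb11, the thymus subunit, which differed by -0.13, were under the negative control median. Psme3ip1 differed by -0.04.

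Genes that work with the proteasome but carry other symbols were read from a fixed list, of which 22 of 31 were measured. Of these, 16 of 22 were above 0, against 50.5% of all transcript clusters, and 6 below 0, with a median of 0.11. Both means exceeded the negative control 95th percentile for 15 of the 22. In that signal band 59.3% of all transcript clusters were above 0, against 42% of those with both means below the negative control median and 58.1% between. The list was chosen with earlier results of these data known, so nothing is read from this count. An unadjusted p under 0.05 was reached by 1 of the 22, against 7.37% of all. That gene was Zfand2a, a stress-inducible zinc finger protein that binds the regulatory particle, with signals of 13.81 and 13.84 in TCQA arrays, against 13.03 and 12.66 in water arrays. The TCQA arrays were almost equal and well above both water arrays. Zfand2a was 1.97-fold higher in TCQA, a log2 change of 0.98 (SE 0.21, 95% interval 0.47 to 1.49), just short of the study's 2-fold criterion. Its adjusted p with limma was 0.642. With each array left out in turn its change ran from 0.79 to 1.17 and kept an unadjusted p under 0.05, and it exceeded 2-fold only without water 1.

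The promoter of Zfand2a is shown because it was the gene of the list with an unadjusted p under 0.05, with its 3 CCAAT boxes in capitals, all read on the opposite strand and beginning at -141, -78 and -18. It held no TGACNNNGC.
Zfand2a (chr5:139484442-139484741, minus strand): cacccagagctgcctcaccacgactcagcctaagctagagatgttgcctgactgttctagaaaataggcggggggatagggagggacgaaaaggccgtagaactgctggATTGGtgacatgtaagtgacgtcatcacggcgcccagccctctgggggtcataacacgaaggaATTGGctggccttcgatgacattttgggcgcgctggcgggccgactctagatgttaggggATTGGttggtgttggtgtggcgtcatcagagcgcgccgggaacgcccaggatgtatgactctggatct

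The other partners had smaller changes. Usp14, the deubiquitinase that trims chains at the particle, lay at 10.93 and 11.49 in TCQA arrays, against 10.67 and 10.82 in water arrays. TCQA 2 was the highest by a wide margin, and the difference was 0.47 (SE 0.24, 95% interval -0.12 to 1.05). It was 0.19 without TCQA 2 and 0.74 without TCQA 1, where its unadjusted p was under 0.05. Vcp, the ATPase that extracts ubiquitinated proteins, and its cofactors Ufd1 and Nploc4 differed by 0.33, 0.29 and 0.12, none with an unadjusted p under 0.05. Both TCQA arrays were above the water arrays for each, as for 19.9% of all transcript clusters. The change of Vcp was 0.10 without TCQA 2 and 0.56 without TCQA 1, that of Ufd1 was 0.19 without TCQA 1, and that of Nploc4 was 0.03 without water 1 and 0.22 without water 2. Nfe2l1 itself differed by -0.17 (95% interval -0.65 to 0.32), and Nfe2l2, a related factor of the antioxidant response, by -0.10 at a signal under the negative control median. Sem1, a small subunit of the lid, differed by -0.36 (SE 0.21), with both TCQA arrays below the water arrays, and Pomp, the maturation factor of the core, by 0.06.

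**Figure D3:**
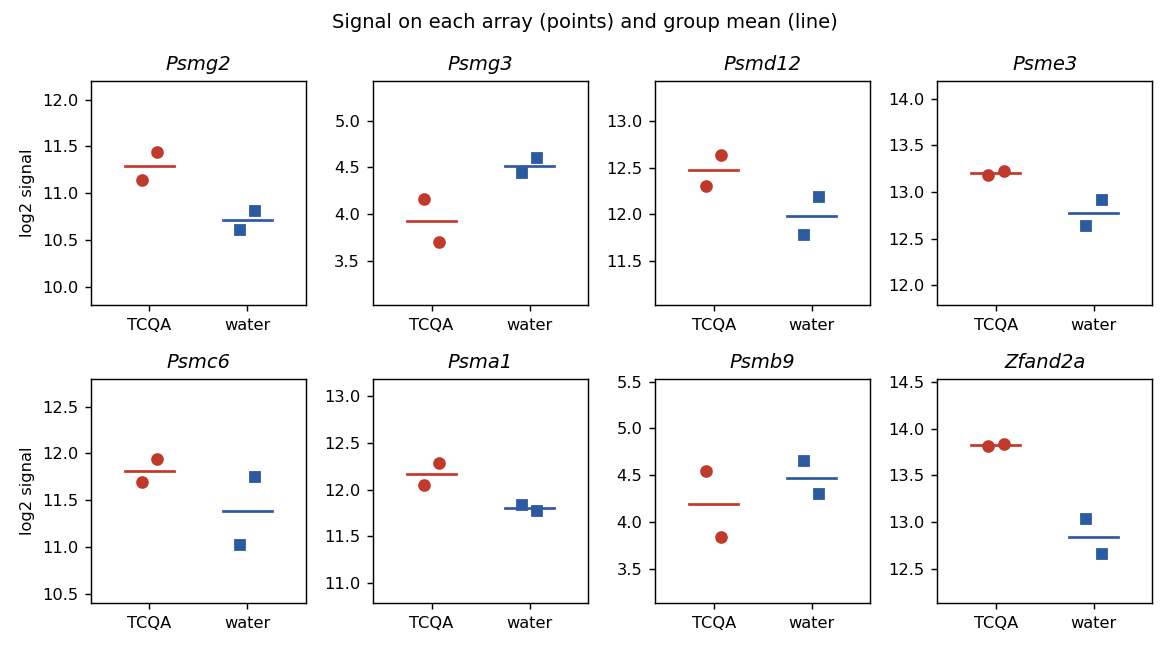
Log2 signal on each array (points) and group mean (lines) for 7 proteasome genes and Zfand2a, TCQA left and water right, each panel spanning the same range of the log2 scale. The points of Psmc6 and Psmb9 overlap between groups, and those of Zfand2a stand furthest apart, at 13.81 and 13.84 with TCQA, against 13.03 and 12.66 with water.

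Markers of other cells and regions also differed between these arrays, and their part in the values above was not tested. Signals were summed on the linear scale, so the brightest gene of a list weighs most in its sum. Choroid plexus markers were lower in TCQA for 6 of 6 genes, with a log2 summed signal of 15.45 and 11.79 in TCQA arrays, against 17.74 and 17.29 in water arrays. That sum is nearly Ttr alone (15.42 and 11.46 with TCQA, against 17.72 and 17.27 with water). Markers of striatal spiny neurons were lower for 6 of 6, with 17.13 and 16.67 in TCQA arrays, against 18.06 and 16.95 in water arrays. Myelin markers were lower for 5 of 6 (17.35 and 17.22 with TCQA, against 18.06 and 17.45 with water). Excitatory neuron markers were higher for 4 of 5, with sums of 19.04 and 18.90 with TCQA, against 18.86 and 19.26 with water. Those sums mostly follow Camk2a, the marker that was lower (18.60 and 18.42 with TCQA, against 18.52 and 18.88 with water), and not the 4 that were higher. Olfactory bulb markers were higher for 5 of 5 and highest in TCQA 2 (8.63 and 11.95 with TCQA, against 9.91 and 8.83 with water). TCQA 2 was above TCQA 1 for 32 of the 50 proteasome genes, with no share over all transcript clusters to set beside it. A link between these values was not tested. Endothelial markers were higher for 5 of 5 (15.40 and 15.46 with TCQA, against 14.84 and 14.78 with water). Microglial markers were lower for 5 of 5 (13.74 and 13.26 with TCQA, against 13.64 and 13.63 with water), and astrocyte markers for 4 of 5 (14.72 and 14.92 with TCQA, against 15.09 and 14.91 with water).

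The share of proteasome genes with an unadjusted p under 0.05 depended on the variance prior of limma. With an intensity trend in that prior it was 10%, against 8.12% of all transcript clusters, and the 5 genes were Psma1, Psme3, Psmd5, Psmd12 and Psmg2, all higher in TCQA. With the filter at the negative control 95th percentile it was 16.7%, against 13.4% of all that passed. That filter keeps a gene by its brighter group, so nothing is read from its count. Of the 5 genes called there, Psmg2 and Psmd14 passed it through their TCQA means alone, and Psma1, Psme3 and Psmd12 in both groups. Among genes not called, Psmf1 passed through its TCQA mean alone and Psmd4 through its water mean alone. In the other settings plotted the share was below that of all.

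**Figure D4:**
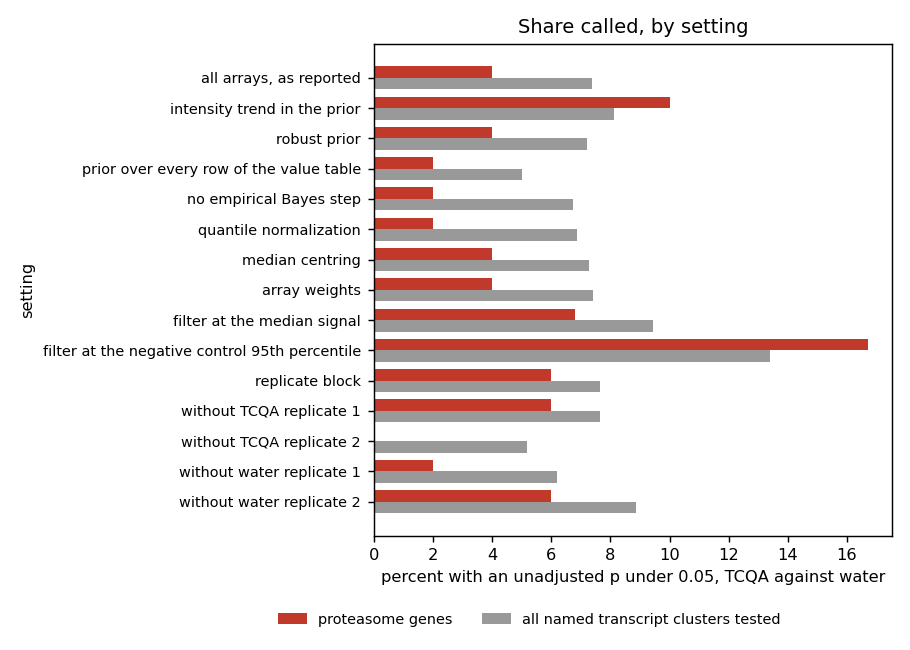
Percent of proteasome genes (red) and of all named transcript clusters tested (grey) with an unadjusted p under 0.05, by setting of the analysis. The red bar is the longer one with an intensity trend (10% against 8.12%) and with the filter at the negative control 95th percentile (16.7% against 13.4%), and the shorter one in every other setting plotted.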

How the data were processed

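RNA of brain cortex was measured on 4 Clariom S mouse arrays, from 100 ng of RNA each, per the labels' protocols and design text. The values the authors deposited are log2 signals, a row per transcript cluster. They were made by signal space transformation RMA in version 4.0.2 of the Transcriptome Analysis Console, as the design text states. RMA equalises the arrays, so no depth can be read, and precision is limited by having 4 arrays. The authors' detection filters were not used here, and the build they used was not given in the sources used here. Of 28846 rows, 19572 carry a gene symbol in the platform annotation, and all were matched to RefSeq (GRCm38.p6) with 0 symbols changed.

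Groups came from the sample titles. Values were compared with limma 3.58.1 (R 4.3.3, lmFit and eBayes, 2-sided, no block) over all 19572, with Benjamini-Hochberg adjustment. The fit was tested on simulated data. Intervals are those of the moderated model, and no list was tested. The members and lists were chosen with earlier results of these data known. Genes given in full had an unadjusted p under 0.05 or were among the 2 largest changes of their class, and Zfand2a was named as the partner with an unadjusted p under 0.05. Other genes were named with their values in view. Alternatives changed the variance prior, normalisation, array weights, signal filter or membership, added a replicate block, or left out an array. Figures used matplotlib 3.10.9.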

Additional observations from a re-analysis of the deposited data

How the results depend on the processing

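Under every alternative run, 0 proteasome genes were past the study's criteria or an adjusted p under 0.05 with limma. The count of genes higher with an unadjusted p under 0.05, 1 as reported, was 5 with an intensity trend, 3 with the filter at the median signal, 5 with the filter at the negative control 95th percentile and 2 with the replicate block. In either direction, the shares of the proteasome genes tested were 10%, 6.82%, 16.7% and 6% in these settings. Those of all transcript clusters tested were 8.12%, 9.45%, 13.4% and 7.65%. The count of lower genes, also 1, was 0 with an intensity trend, with a prior over every value of the table, without the empirical Bayes step, with quantile normalisation and with either signal filter (Psmg3 is not tested there), and 0 to 1 with an array left out. The filters keep a gene by its brighter group, so their counts support nothing. Of the genes called with the higher filter, Psmg2 and Psmd14 passed it through their TCQA means alone. Psmg2 had no unadjusted p under 0.05 without the empirical Bayes step or with TCQA 2 or water 1 left out. Psmg3 had none with an intensity trend, a prior over every value of the table, no empirical Bayes step or quantile normalisation, or with TCQA 2, water 1 or water 2 left out. Zfand2a kept it in 14 of 14 settings. Partner genes higher numbered 1 to 2 with an array left out.

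Several class medians changed sign. With an array left out they ran from -0.10 to 0.17 for the alpha ring, -0.16 to -0.03 for the beta ring, -0.26 to 0.07 for the immunoproteasome, -0.09 to 0.11 for the ATPases, -0.11 to 0.14 for the other regulatory subunits, 0.13 to 0.24 for activators and inhibitor, -0.23 to 0.04 for assembly, -0.33 to 0.08 for the other matches, 0.05 to 0.16 for partners, -0.19 to -0.01 for class I genes and -0.04 to 0.02 for all 50. Of the 50 genes, 21 changed sign in at least 1 of these fits. The filter at the median signal gave -0.01 for all genes, -0.42 for other matches and -0.20 for class I genes. The filter at the negative control percentile gave 0.04 for all genes, 0.17 for activators and 0.59 for assembly, where Psmg2 alone was left. Quantile normalisation gave 0.06 for activators, and leaving out members outside the particle gave -0.02 for all. The cause was not tested, other than the fewer genes that a filter leaves.

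Both groups carry replicate numbers 1 and 2, but same-numbered arrays did not deviate together (r = -0.0032 across 19572 transcript clusters, which are not independent). With 2 arrays per group this correlation cannot settle whether the numbers pair the arrays. With the replicate block the calls were 2 higher, Psmd5 and Psmg2, and 1 lower, Psmg3, together 6% of the 50 genes, against 7.65% of all transcript clusters.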
